A study of Mus musculus with 6 samples.

Results

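The 6 mouse Dlx genes, which stand in the genome as the 3 pairs Dlx1-Dlx2, Dlx3-Dlx4 and Dlx5-Dlx6, were examined in maps of the histone mark H3K4me1 from embryonic whisker pads. A peak was assigned to a pair when it overlapped the body of either gene or the 5 kb on each side, when it overlapped the DNA between the genes, or when it lay within 100 kb and its place of highest signal was closer to the start site of one of the genes than to that of any other protein-coding gene. These 6 of 21755 protein-coding genes received 16 of 16788 peaks in replicate 1, 12 of 12969 in replicate 2 and 5 of 13998 in replicate 3.

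H3K4me1, a single methyl group on lysine 4 of histone H3, marks active and poised enhancers, and CUT&Tag maps it with an antibody-guided transposase that cuts out marked DNA for sequencing. The 6 samples came from wild-type whisker pads of strain B6/J2 at embryonic day 12, taken apart into single cells and used fresh, with 3 samples treated with anti-H3K4me1 and 3 with control IgG. The whisker pad is the part of the upper snout in which whisker follicles form, and the whole pad holds facial mesenchyme, surface ectoderm and other cells. The 3 H3K4me1 samples are named replicates 1, 2 and 3 after the pad number in the titles, and no IgG background is given because the IgG samples were not analysed here.

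Dlx genes encode homeodomain transcription factors related to Drosophila Distal-less. Each pair holds genes that face each other tail to tail, and the members of a pair are expressed in similar places under enhancers they share, several of which lie in the DNA between them. In the pharyngeal arches the pairs are expressed in nested fashion, with Dlx1 and Dlx2 along the arch, including the maxillary part that forms the whisker pad, Dlx5 and Dlx6 mainly in the mandibular part, and Dlx3 and Dlx4 in the most distal part. Dlx3 also acts in surface ectoderm and hair follicles, and Dlx1, Dlx2, Dlx5 and Dlx6 act in inhibitory neurons of the forebrain.

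The labels and the libraries needed a check before the genes were read. In 4 samples, including replicates 2 and 3 of H3K4me1, the source name gives adult kidney although the title gives whisker pad. Of 14 facial mesenchyme markers, such as Prrx1, Twist1 and Alx4, all 14 had a peak over the gene body or its 5 kb flanks in each replicate. Of 14 surface ectoderm markers, 10, 10 and 4 had one in replicates 1, 2 and 3, with Trp63 and Grhl3 among those in all replicates and Epcam, Krt14, Esrp1 and Perp in none. Of 14 adult kidney markers, 5, 4 and 2 had one, against 24.9, 22.6 and 19.6% of all protein-coding genes. Slc12a1 and Cubn had one in all replicates, and Umod and Nphs1 were among those in none. Replicate 3 held fewer ectoderm markers than the other replicates, although its list was longer than that of replicate 2. The study gives a single nominal sequencing depth for all samples, but peak lists do not show how many reads each library yielded. A gene without a peak is a gene below the limit of the top 1% of signal blocks, not a gene without the mark. The total signal within peaks ranged from 744342185 in replicate 3 to 985881531 in replicate 2, in unscaled units, and levels are therefore given as percentiles or shares within each list. Because the pads hold several cell types, a mark on fewer cells and a weaker mark per cell cannot be told apart. Only replicate 1 carries the whisker pad in both its title and its source name, which is why every value below is given by replicate.

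**Figure D1:**
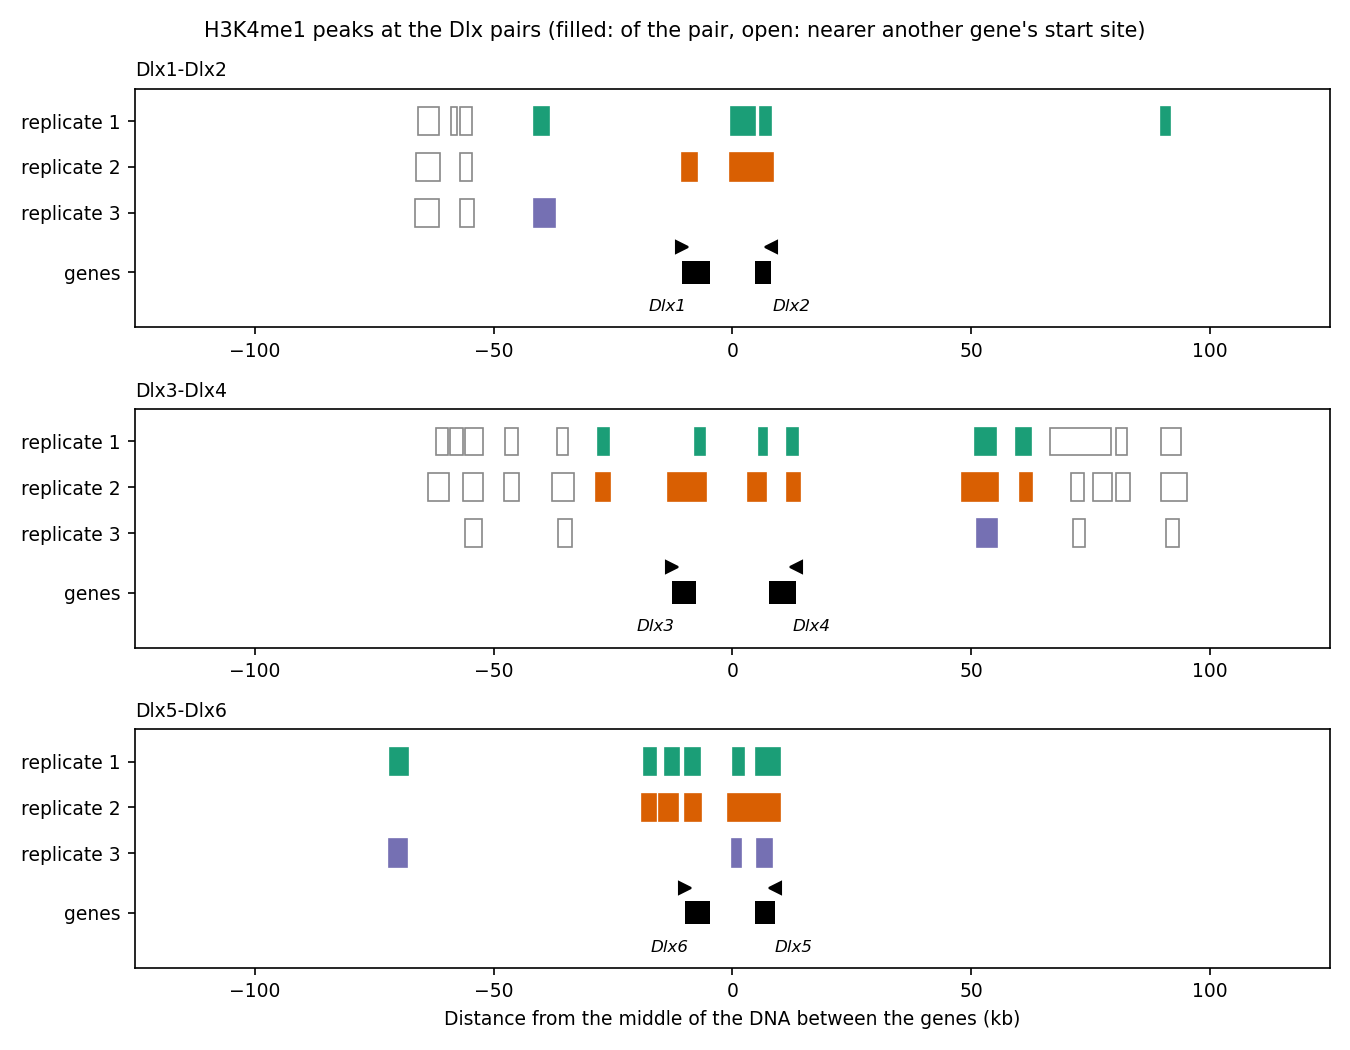
Peaks on both sides of the middle of the DNA between the genes of each pair, by replicate (x axis in kb). Filled bars are peaks assigned to the pair, open bars are peaks closer to another coding gene's start site, black bars are the gene bodies and arrowheads mark the start sites and the direction of transcription. Replicate 3 has no filled bar over or between the genes of Dlx1-Dlx2 and Dlx3-Dlx4, and has filled bars over Dlx5 and between Dlx6 and Dlx5.

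Dlx1 (ENSMUSG00000041911.3, chr2:71528113-71533981, plus strand) and Dlx2 (ENSMUSG00000023391.8, chr2:71543408-71546754, minus strand) are separated by 9426 bp. Their coding neighbours are Metap1d, a mitochondrial methionine aminopeptidase, and Itga6, an integrin subunit. The peaks of the pair lay mostly over Dlx2 and the DNA next to its 3′ end. In replicate 1, a peak of 5.19 kb at chr2:71538316-71543503 stood at percentile 78.8 of its list by total signal, where the percentile is the share of peaks with the same or a lower value. A separate peak at chr2:71544452-71546818, at percentile 37.6, covered the Dlx2 start site. In replicate 2, a single peak of 8.98 kb at chr2:71538198-71547180 spanned both places and stood at percentile 89.2. Replicate 3 had no peak over Dlx1, over Dlx2 or between them.

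Dlx1 itself carried less. In replicate 2 a peak at chr2:71528195-71531363, at percentile 15.9, began 82 bp after the annotated Dlx1 start and lay over Dlx1 and its antisense RNA Dlx1as. In replicate 1, Dlx1 was counted only through the intergenic peak, which reached into its 3′ flank and ended 10.2 kb from its start site. The 2 distal peaks of replicate 1 were at chr2:71497253-71500360 inside Metap1d, 28.5 kb from the Dlx1 start, and at chr2:71628478-71630366, 82.6 kb from the Dlx2 start, at percentiles 44.3 and 15.7. The one peak of the pair in replicate 3, at chr2:71497149-71501590 and percentile 54.9, overlapped the former of these. RefSeq promoter windows, from 250 bases before to 50 after the start, were found for 2 of the 6 genes. The Dlx1 window (GRCm38.p6), which lies downstream of the GENCODE start, was covered by 0, 100 and 0% in replicates 1, 2 and 3, and the Dlx2 window by 38, 100 and 0%. Both windows were rich in CpG, with 27 and 29 of these dinucleotides against a median of 7 over 32851 promoters.

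The sequence under the intergenic maximum of replicate 1 is shown with that of a nearby window, because only the latter holds the core motif of homeodomain proteins such as Dlx. This core, TAATTA (its own reverse complement), was searched in all 3 pairs, and in the sequences printed here capitals mark a match to TAATTA or TAATTG on the plus strand of GRCm38. The first window is the 200 bases around the maximum, at chr2:71539115-71539314, and has a GC content of 60.5%. The second is the 200 bases with the most TAATTA between the genes, at chr2:71535612-71535811, in an intron of Dlx1as, with 28% GC and 3 matches.
Dlx1-Dlx2 maximum: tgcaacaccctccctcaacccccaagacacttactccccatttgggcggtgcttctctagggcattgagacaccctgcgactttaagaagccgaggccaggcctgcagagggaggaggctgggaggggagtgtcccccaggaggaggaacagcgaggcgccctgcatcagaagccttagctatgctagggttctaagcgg
Dlx1-Dlx2 TAATTA-rich window: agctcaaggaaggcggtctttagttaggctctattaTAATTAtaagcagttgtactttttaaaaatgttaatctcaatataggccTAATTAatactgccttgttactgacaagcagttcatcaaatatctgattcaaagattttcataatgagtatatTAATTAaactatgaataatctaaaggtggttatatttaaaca
No replicate had a peak over the TAATTA-rich window. The closest peak edge was 2505 bp away in replicate 1, 2387 bp in replicate 2 and 34022 bp in replicate 3.

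Dlx3 (ENSMUSG00000001510.8, chr11:95120119-95125296, plus strand) and Dlx4 (ENSMUSG00000020871.8, chr11:95140447-95146263, minus strand) are 15150 bp apart, between Itga3, an integrin subunit, and Tac4, a tachykinin precursor. Dlx3 was covered far more widely in replicate 2 than in replicate 1. In replicate 1 its one peak, at chr11:95125041-95127170 and percentile 42.9, lay over its 3′ end. In replicate 2 a peak of 7.92 kb at chr11:95119438-95127356, at percentile 78.6, covered the whole gene and its start site. The closest peak of replicate 3 was 20.8 kb from the Dlx3 start.

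The Dlx4 start site was covered in replicates 1 and 2, by peaks at chr11:95144209-95146603 and chr11:95144214-95146920 that stood at percentiles 33.4 and 36.4. These peaks also covered the start of the antisense RNA Dlx4os. A second region, next to the 3′ end of Dlx4 in the DNA between the genes, had peaks at percentiles 12.1 and 49.1 in replicates 1 and 2. Replicate 3 had neither. Its single peak of the pair was distal, at chr11:95184107-95188308, in intergenic DNA 41.6 kb beyond the Dlx4 start.

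That distal region, chr11:95180863-95188355, was 1 of the 2 Dlx regions with a peak in all 3 replicates. It stood at percentile 77.9, 85.4 and 49.3 of the lists of replicates 1, 2 and 3, and was 4.45, 7.49 and 4.20 kb wide. The places of highest signal were spread over 3746 bp, measured between their middles. In replicate 2 the place given for the highest signal was a stretch from 95182401 to 95185909, which contained the maximum of replicate 1 at 95184760 but not that of replicate 3 at 95187901. The window of replicate 1 at chr11:95184660-95184859 is printed for this region, followed by the maximum next to the 3′ end of Dlx3 (chr11:95126287-95126486), the maximum next to the 3′ end of Dlx4 (chr11:95139299-95139498) and the window with the most TAATTA between the genes (chr11:95137678-95137877).
Dlx4 distal maximum: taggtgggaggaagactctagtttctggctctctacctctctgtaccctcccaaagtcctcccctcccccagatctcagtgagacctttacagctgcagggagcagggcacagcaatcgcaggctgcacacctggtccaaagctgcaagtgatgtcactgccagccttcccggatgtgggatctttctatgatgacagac
Dlx3 3′ maximum: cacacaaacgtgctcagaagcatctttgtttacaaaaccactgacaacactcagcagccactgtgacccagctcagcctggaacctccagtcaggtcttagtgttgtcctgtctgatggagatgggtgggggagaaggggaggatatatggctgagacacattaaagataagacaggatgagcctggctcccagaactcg
Dlx4 3′ maximum: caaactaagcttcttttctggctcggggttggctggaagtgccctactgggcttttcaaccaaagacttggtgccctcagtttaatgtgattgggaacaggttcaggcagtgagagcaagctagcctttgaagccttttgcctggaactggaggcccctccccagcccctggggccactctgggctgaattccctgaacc
Dlx3-Dlx4 TAATTA-rich window: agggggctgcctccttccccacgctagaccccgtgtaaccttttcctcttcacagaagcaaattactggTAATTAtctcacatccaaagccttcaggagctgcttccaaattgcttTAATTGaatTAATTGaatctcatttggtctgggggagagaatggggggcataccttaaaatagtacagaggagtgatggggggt
The TAATTA-rich window holds 1 TAATTA and 2 TAATTG, and it is the only such window of the 3 pairs under a peak. The peak of replicate 2 covered 100% of it, the closest peak edge of replicate 1 was 486 bp away and that of replicate 3 was 38374 bp away.

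Dlx6 (ENSMUSG00000029754.13, chr6:6863334-6868568, plus strand) and Dlx5 (ENSMUSG00000029755.10, chr6:6877805-6882085, minus strand) are 9236 bp apart, between Sem1, a proteasome subunit, and Sdhaf3, an assembly factor of succinate dehydrogenase. Dlx5 was the only member with a peak over its body in every replicate. In replicate 1 the Dlx5 peak, chr6:6878114-6883086, was 4.97 kb wide and stood at percentile 81.8. In replicate 2 a peak of 10.8 kb, chr6:6872341-6883107, joined Dlx5 to the DNA between the genes and stood at percentile 93.6, the highest of any Dlx peak. In replicate 3 the peak, chr6:6878326-6881456, was 3.13 kb wide, stood at percentile 58.8 and ended 629 bp short of the Dlx5 start site.

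The DNA between Dlx6 and Dlx5 held a peak in all 3 replicates. Replicates 1 and 3 called it apart from Dlx5, at chr6:6873209-6875573 and chr6:6873197-6875059, and their places of highest signal coincided at base 6874518. In rank the peaks were far apart, at percentile 63.3 in replicate 1 and 1.79 in replicate 3, where its total signal was 1.02 times that of the weakest peak of the list. Dlx6 owed its peak in replicate 3 to this intergenic peak alone, which reached into its 5 kb flank.

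Over the Dlx6 start and upstream of it, replicates 1 and 2 shared 3 regions. The region over the Dlx6 start site, chr6:6863200-6866568, stood at percentiles 13.4 and 12.3 and also covered 100% of the short transcript Dlx6os2. The others, chr6:6857751-6861924 and chr6:6854216-6857270, lay inside the antisense RNA Dlx6os1, which was covered by 16.1 and 20.2% of its length in replicates 1 and 2 and by 0% in replicate 3. The outer one lay past the 5 kb flank and was included as distal, 7.24 kb from the Dlx6 start in replicate 1. A further distal region, chr6:6801270-6805387, 59.8 kb from the Dlx6 start, had a peak in replicates 1 and 3 at percentiles 53.4 and 51.3, with both maxima at base 6803564, and had none in replicate 2. The sequences around the 2 maxima that fell on one base in replicates 1 and 3 (chr6:6874418-6874617 and chr6:6803464-6803663) are printed with the TAATTA-rich window of this pair (chr6:6869533-6869732, in an exon of Dlx6os1).
Dlx5-Dlx6 intergenic maximum: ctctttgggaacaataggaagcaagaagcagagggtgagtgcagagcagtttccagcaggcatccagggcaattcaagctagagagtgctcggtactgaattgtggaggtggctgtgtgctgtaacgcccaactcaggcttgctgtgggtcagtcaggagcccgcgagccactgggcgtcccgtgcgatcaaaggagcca
Dlx6 distal maximum: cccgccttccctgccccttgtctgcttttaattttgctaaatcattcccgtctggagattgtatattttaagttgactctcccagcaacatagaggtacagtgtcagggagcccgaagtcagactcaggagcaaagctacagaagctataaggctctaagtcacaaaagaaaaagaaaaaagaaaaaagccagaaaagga
Dlx5-Dlx6 TAATTA-rich window: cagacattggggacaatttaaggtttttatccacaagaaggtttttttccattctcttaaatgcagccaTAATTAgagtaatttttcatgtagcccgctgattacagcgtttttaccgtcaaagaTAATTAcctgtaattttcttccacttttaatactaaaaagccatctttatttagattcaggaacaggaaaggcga
As at Dlx1-Dlx2, no replicate had a peak over the TAATTA-rich window. The closest edges were 3231, 2609 and 3465 bp away in replicates 1, 2 and 3.

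**Figure D2:**
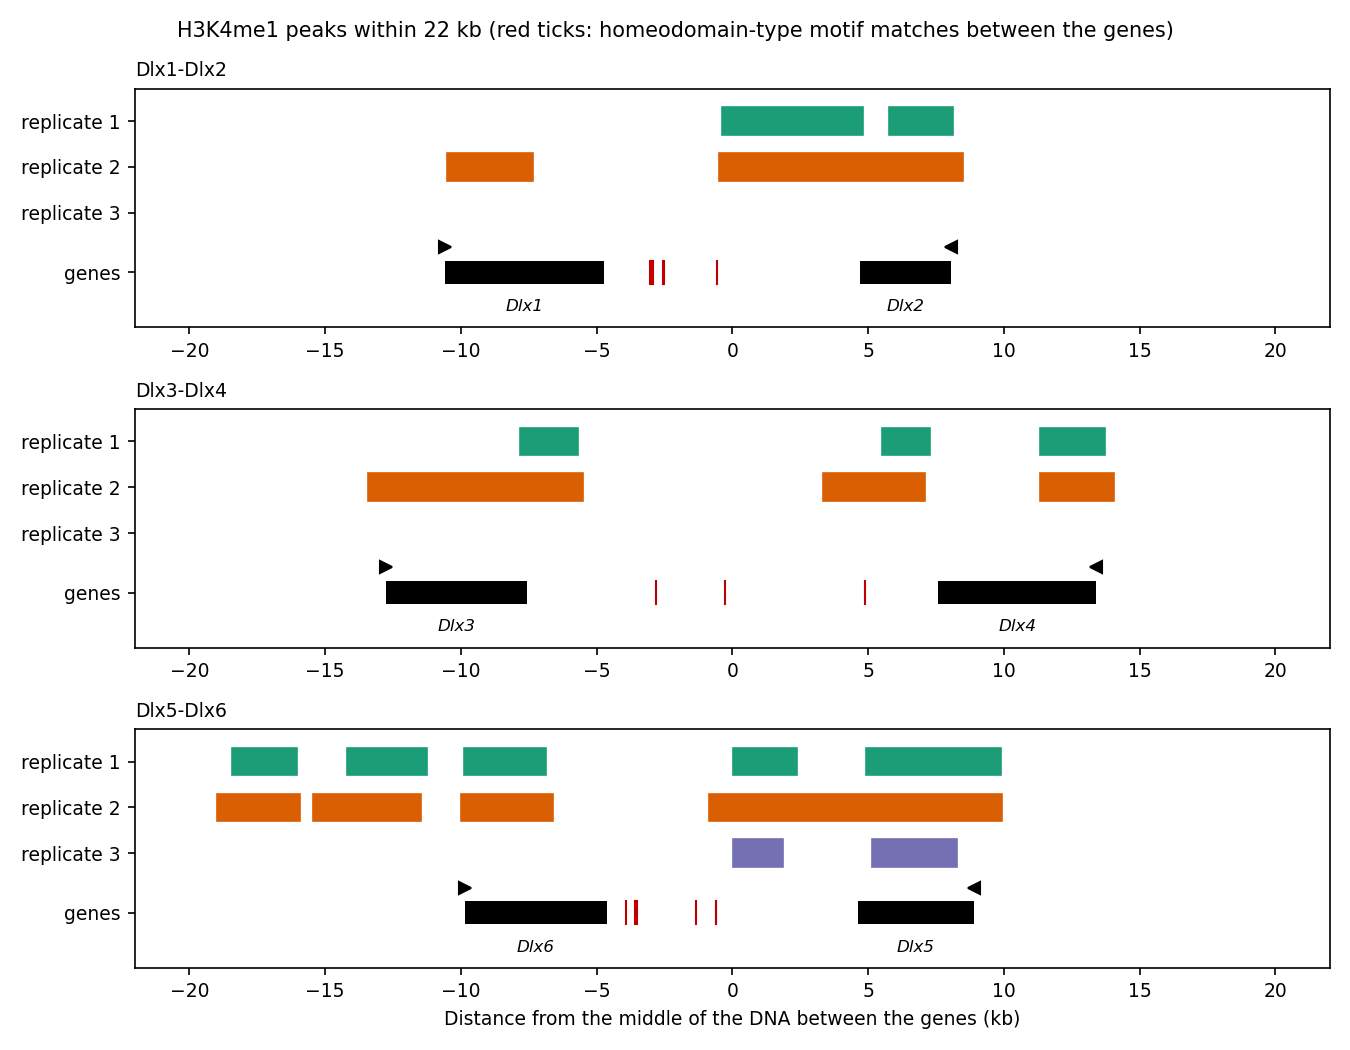
Peaks within 22 kb of the middle of the DNA between the genes, by replicate (x axis in kb), with gene bodies in black, start sites as arrowheads and matches to TAATTA between the genes as red ticks. All 6 ticks of Dlx1-Dlx2 lie outside the peaks, and 1 of 3 at Dlx3-Dlx4 and 2 of 6 at Dlx5-Dlx6 lie under a peak of replicate 2.

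Over the whole of the DNA between the genes, TAATTA occurred 6 times at Dlx1-Dlx2, 3 times at Dlx3-Dlx4 and 6 times at Dlx5-Dlx6, or 0.637, 0.198 and 0.650 times per kb, in DNA of 50.8, 52.5 and 45.7% GC. None, 1 and 2 of these matches lay under a peak in any replicate. In 200-base windows around the place of highest signal, TAATTA was in 0 of the 16, 12 and 5 Dlx peaks of replicates 1, 2 and 3, against 2.24, 2.06 and 4.35% of the peaks of the whole lists. TAATTG, which shares its first letters with TAATTA and was searched on both strands, was also in 0 of them, against 3.71, 3.75 and 6.84%. CAGATG, an E-box read by Twist-type factors and searched on both strands, was in 1 Dlx peak of each replicate, against 18.8, 19.1 and 18.9%. No match means only that these letters were not in these windows.

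The 6 genes were then compared by the share of the gene body and its 5 kb flanks that lay under a peak. Dlx5 had 51.4% in replicate 1, 72.1% in replicate 2 and 35.0% in replicate 3, with a mean of 52.8 ± 18.6% (SD, n = 3). Dlx2 had 55.9, 65.7 and 0%, a mean of 40.6 ± 35.5%. Dlx6 had 41.3, 52.4 and 2.44%, a mean of 32.02 ± 26.2%. Dlx5 was thus the one gene of substantial coverage in every replicate, and Dlx2 reached the same range in replicates 1 and 2 alone. Dlx4 had 26.4, 40.9 and 0%, with a mean of 22.4 ± 20.7%. Dlx3 had 14.0, 52.2 and 0%, with a mean of 22.1 ± 27.0%. Dlx1 had 4.20, 24.9 and 0%, with a mean of 9.70 ± 13.3%. Within replicates, Dlx6 exceeded Dlx4 in 3 of 3, by 9.59 ± 6.42 percentage points (SD, n = 3), with no test made. In replicate 3 this excess was only the edge of the intergenic peak in the Dlx6 flank, with 0% of the Dlx6 body covered. The other neighbours in this order differed on average by less than the SD of their difference. Among all protein-coding genes, the means of Dlx5, Dlx2, Dlx6, Dlx4, Dlx3 and Dlx1 were above those of 99.4, 98.4, 97.2, 94.97, 94.8 and 87.8% of genes. In each of the 6 genes replicate 2 was highest and replicate 3 lowest.

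**Figure D3:**
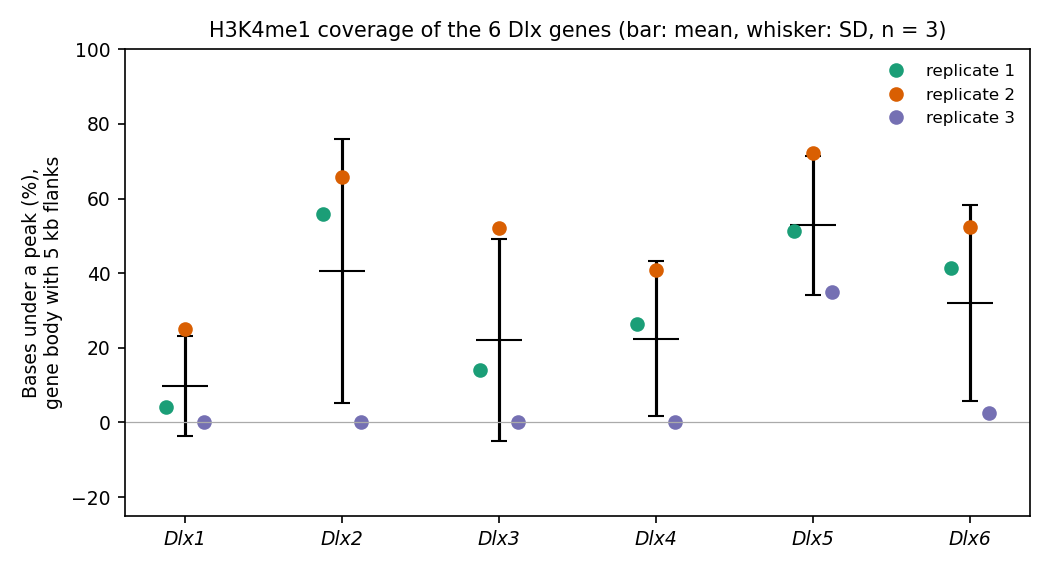
Share of bases under a peak, in percent, over the gene body and its 5 kb flanks for the 6 Dlx genes. Points are the replicates, the horizontal bar is the mean and whiskers are 1 SD (n = 3), which reach below 0 for Dlx1 and Dlx3. Replicate 3 is at 0% for Dlx1, Dlx2, Dlx3 and Dlx4, at 2.44% for Dlx6 and at 35.0% for Dlx5.

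By count, 6 of 6 members had a peak within 5 kb in replicate 1 (24.9% of all protein-coding genes), 6 of 6 in replicate 2 (22.6%) and 2 of 6, Dlx5 and Dlx6, in replicate 3 (19.6%). The same 2 were the members with a peak in all 3 replicates, which 15.5% of all protein-coding genes had, and 7.77% of the 3474 genes that are 3 to 7 kb long like the Dlx genes. The count of members was 6 without replicate 3, and 1, Dlx5, when at least 50% of a peak had to lie in the window. The 5′ start site was under a peak for Dlx2, Dlx4, Dlx5 and Dlx6 in replicate 1 (4 of 6, background 5.31%), for these and Dlx3 in replicate 2 (5 of 6, background 6.5%) and for 0 of 6 in replicate 3 (background 2.42%). The GENCODE start of Dlx1 was under no peak, although the RefSeq promoter window of Dlx1, downstream of it, was under a peak in replicate 2.

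The peaks of the 3 replicates merged into 15 Dlx regions, 4 at Dlx1-Dlx2, 6 at Dlx3-Dlx4 and 5 at Dlx5-Dlx6. Peaks of all 3 replicates fell in 2 (13.3%), the region over Dlx5 and the distal region beyond Dlx4, against 46.3% of all 19251 merged regions. A further 11 had a peak in 2 replicates and 2 in a single one. Of the 11, 9 lacked replicate 3 and 2 lacked replicate 2. When the 11 Dlx regions with peaks in both replicates 1 and 2 were counted, 2 (18.2%) also had one in replicate 3, against 77.2% of the 11545 such regions in the genome.

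The GC content of these regions was then measured. The 9 Dlx regions in replicates 1 and 2 but not 3 had a median GC content of 53.4%, from 47.9 to 56.2%, and all 2628 regions of that kind had a median of 52.4%. The 2 Dlx regions in all 3 replicates had 51.1 and 53.3%, above the median of 47.3% over the 8916 regions of that kind on the autosomes and the X. The 2 Dlx regions in replicates 1 and 3 but not 2, inside Metap1d and far upstream of Dlx6, had 42.6 and 42.2%, beside a median of 43.7% for the 1588 such regions. Over the 15 Dlx regions the median was 53.3%, and over all regions 47.3%. The 2 Dlx regions in all 3 replicates lay within the range of the 9 without a peak in replicate 3. The 2 in replicates 1 and 3 but not 2 lay below that range. The part of GC content in the loss of Dlx peaks from replicate 3 was not tested, and the same holds for the lower number of ectoderm markers in that replicate.

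**Figure D4:**
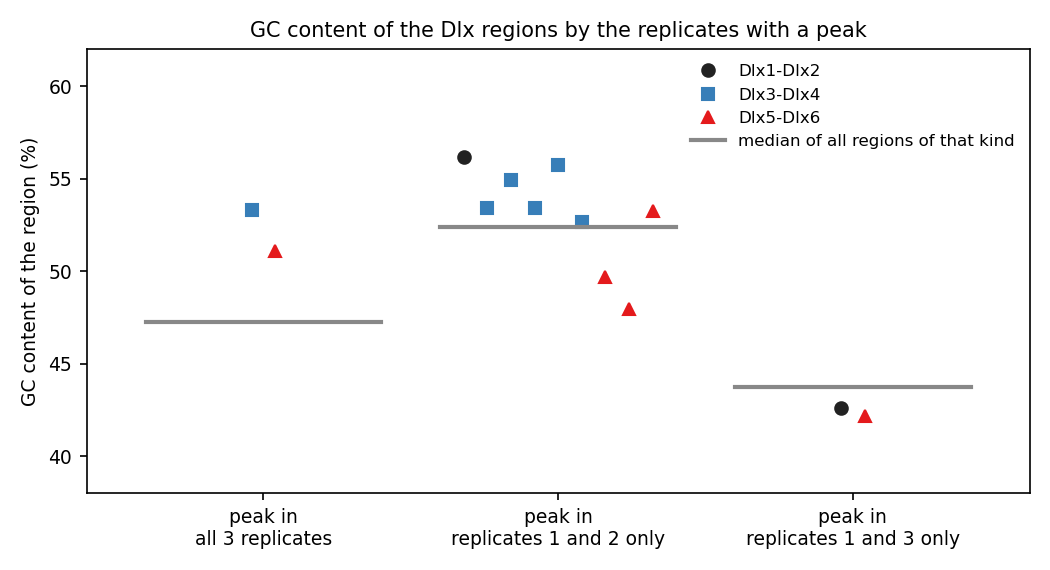
GC content, in percent, of the Dlx regions found in all 3 replicates (2 regions), in replicates 1 and 2 only (9) and in replicates 1 and 3 only (2), with 1 symbol per region by pair. Grey lines are the medians of all regions of the same kind, at 47.3, 52.4 and 43.7%, and the 2 regions absent from replicate 2 lie below every other Dlx region in the plot.

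The pairs were compared within each replicate, since the lists differ in signal. Peaks of Dlx1-Dlx2 covered 12.6, 12.2 and 4.44 kb in replicates 1, 2 and 3, and 9.72 ± 4.57 kb on average (SD, n = 3). Those of Dlx3-Dlx4 covered 16.2, 27.5 and 4.20 kb, a mean of 16.0 ± 11.6 kb. Those of Dlx5-Dlx6 covered 19.6, 21.2 and 8.83 kb, a mean of 16.5 ± 6.71 kb. Replicate 3 was lowest for every pair, and Dlx3-Dlx4 varied most between pads.

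Dlx1-Dlx2 was below Dlx5-Dlx6 in 3 of 3 replicates, with a mean difference of -6.81 ± 2.32 kb (two-sided exact sign-flip permutation test, p = 0.25, adjusted p = 0.625). It was also 2 peaks below in each replicate. Against Dlx3-Dlx4 the difference was -6.24 ± 8.10 kb (exact p = 0.5, adjusted p = 0.682), with Dlx1-Dlx2 lower in replicates 1 and 2 and higher by 0.24 kb in replicate 3. Without replicate 2 this difference was -1.69 kb, and without replicate 3 it was -9.47 kb. Dlx5-Dlx6 and Dlx3-Dlx4 differed by 0.58 ± 6.001 kb (exact p = 1, adjusted p = 1), a difference with no settled sign, since it was -0.84 kb without replicate 1 and -1.45 kb without replicate 3. An exact test over 3 replicates cannot give less than 0.25, so none of the 15 comparisons made, to which the Benjamini-Hochberg adjustment refers, could pass 0.05. The labels do not say whether the pads came from separate litters, and the spread may be in part technical.

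The share of each list's total signal gave the same order of means. Dlx1-Dlx2 held 0.0147, 0.0170 and 0.00514% of the signal in replicates 1, 2 and 3. Dlx3-Dlx4 held 0.0203, 0.0356 and 0.00466%. Dlx5-Dlx6 held 0.0230, 0.0296 and 0.0130%. Dlx5-Dlx6 was the pair with the most signal in replicates 1 and 3, and Dlx3-Dlx4 in replicate 2. Per kb of peak, signal at the pairs was between 0.634 and 0.839 times the mean of the list, below the list mean for every pair and replicate. Of the single Dlx peaks, 2 of 16, 1 of 12 and 1 of 5 were above the list mean per kb in replicates 1, 2 and 3. The share of all peaks above that mean was not computed, so these counts cannot be read as a trait of the Dlx peaks.

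The DNA between the genes is where shared enhancers of the pairs are known. Dlx1-Dlx2 had 54.0, 55.3 and 0% of it under a peak in replicates 1, 2 and 3. Dlx5-Dlx6 had 25.6, 59.2 and 20.2%, and Dlx3-Dlx4 had 24.1, 38.4 and 0%. Dlx5-Dlx6 exceeded Dlx3-Dlx4 in 3 of 3 replicates, by 14.1 ± 11.0 percentage points on average (exact sign-flip p = 0.25, adjusted p = 0.625). The excess was 1.47 points in replicate 1, and in replicate 3 it came only from the intergenic peak at percentile 1.79. With the strongest 10000 peaks of each list the means were 28.3% for Dlx5-Dlx6 and 16.9% for Dlx3-Dlx4. Dlx1-Dlx2 and Dlx5-Dlx6 had means of 36.4 and 35.0% and changed places between replicates (exact p = 1, adjusted p = 1). Without replicate 3 the means were 54.7% for Dlx1-Dlx2, 31.3% for Dlx3-Dlx4 and 42.4% for Dlx5-Dlx6. Without replicate 2 they were 27.0, 12.1 and 22.9%, and without replicate 1 they were 27.6, 19.2 and 39.7%, with Dlx5-Dlx6 above Dlx1-Dlx2.

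Another picture came from the whole interval between the coding neighbours, with every peak counted whichever gene it was closest to. The interval of Dlx3-Dlx4 is 184.7 kb long and had 23.7, 29.1 and 8.62% under a peak in replicates 1, 2 and 3. That of Dlx1-Dlx2, of 220.4 kb, had 8.99, 9.73 and 2.08%. That of Dlx5-Dlx6, of 377.3 kb, had 5.19, 5.61 and 4.24%. The Dlx3-Dlx4 interval was the most covered in 3 of 3 replicates, by 13.5 ± 6.49 percentage points over Dlx1-Dlx2 and by 15.5 ± 9.91 over Dlx5-Dlx6 (exact sign-flip p = 0.25 and adjusted p = 0.625 for each). Part of this was in peaks that the rule leaves out. Within the interval, the peaks of Dlx3-Dlx4 themselves covered 16.2, 27.5 and 4.20 kb, those closer to the Itga3 start 8.62, 11.5 and 6.49 kb, and those closer to the Tac4 start 18.9, 14.7 and 5.23 kb. In the Dlx1-Dlx2 interval, peaks closer to the Itga6 start covered 8.48, 7.49 and 4.59 kb, and replicates 1 and 2 each had 1 peak closest to Dlx2 but more than 100 kb from it. In the Dlx5-Dlx6 interval only replicate 3 had a peak outside the pair, of which 7.16 kb lay in the interval and which was closest to Sem1. The strongest of the peaks closer to Tac4, chr11:95199372-95211991 in replicate 1, was 12.6 kb wide and stood at percentile 93.7. It lay 58.7 kb from the Dlx4 start and 56.6 kb from the Tac4 start, just outside the rule, whereas the peak at chr11:95192216-95195424, 48.5 kb from Dlx4 and at percentile 29.8, lay just inside it. Outside the Dlx1-Dlx2 interval, 3, 2 and 2 peaks inside Metap1d within 100 kb of the Dlx1 start were left out because they were closer to the Metap1d start, at up to percentile 80.2, 78.3 and 82.0.

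**Figure D5:**
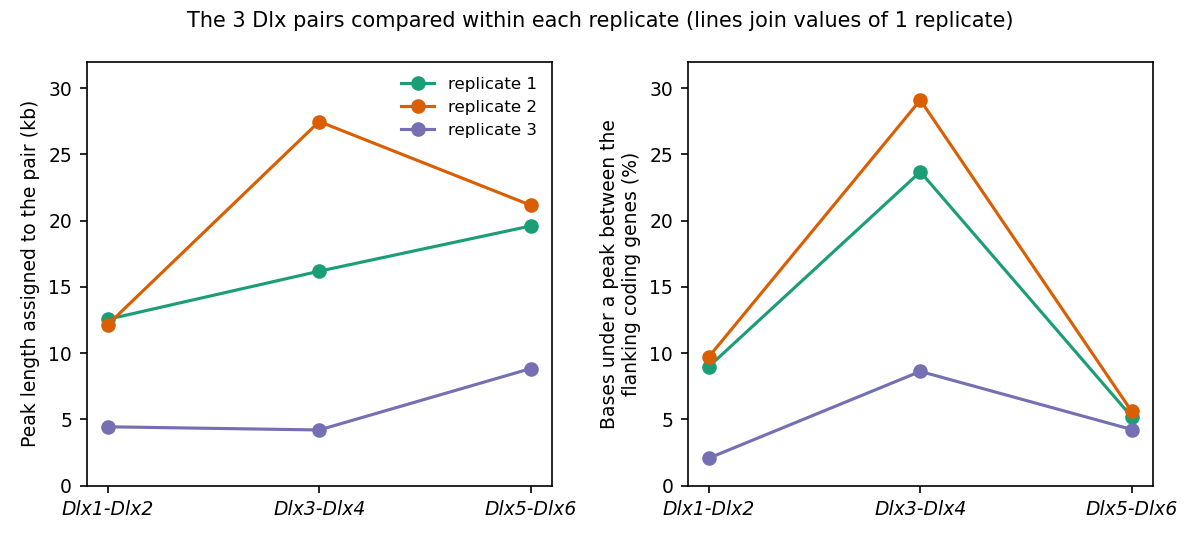
The 3 Dlx pairs in each replicate, by the length of assigned peaks (left, kb) and by the share of the interval between the flanking coding genes under any peak (right, percent), with lines joining values of 1 replicate. Dlx1-Dlx2 is below Dlx5-Dlx6 on the left, and Dlx3-Dlx4 is highest on the right, in each of the 3 replicates.

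The genes that act with the Dlx genes in the facial prominences were read in the same way, from a list of 22 that holds upstream signals, partners and targets. Of these, 20, 21 and 17 had a peak within 5 kb in replicates 1, 2 and 3 (background 24.9, 22.6 and 19.6%), and 17 had one in all replicates (background 15.5%). The median coverage of the 22 genes was 40.7%, against 0% over all protein-coding genes. Ednra, the receptor of the endothelin signal that switches on Dlx5 and Dlx6 in the mandibular arch, had 35.2, 37.0 and 38.9% in replicates 1, 2 and 3. Edn1, its ligand, had 14.8, 25.6 and 25.5%. Gsc, a homeobox gene that acts downstream of Dlx5 and Dlx6, had 52.3, 83.1 and 81.9%. These 3 were among the 17 of 22 genes of the list with a peak in replicate 3. Hand2, another gene downstream of Dlx5 and Dlx6, was not.

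Other genes of the list lacked peaks in some or all replicates. Hand2, a basic helix-loop-helix factor of the mandibular arch that Dlx5 and Dlx6 activate, had no peak in any replicate, the only gene of the list of which this is true. Hand1 had one in replicate 2 alone, where it covered 23.5%. Fgf8, Barx1 and Gbx2 had peaks in replicates 1 and 2 and none in replicate 3. Barx1, a tooth and jaw homeobox gene, was thus at 42.3, 69.8 and 0%. Dlx1, Dlx2, Dlx3 and Dlx4 also had peaks in replicates 1 and 2 only. So did several surface ectoderm markers, Aqp2 and Pax8 of the kidney markers, and Gad2 and Sp9 of the forebrain markers. The share of all protein-coding genes with this pattern was not computed, so it cannot be read as a trait of these genes. The homeobox genes Msx1 and Alx4 had 86.8, 100 and 78.7% and 89.9, 96.5 and 72.1%, above every Dlx gene in each replicate.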

How the data were processed

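CUT&Tag peak lists of 3 H3K4me1 samples were used, 1 per sample. Per the submitters' processing notes, Bowtie2 2.3, SAMtools 0.1.19, bedtools and SEACR 1.3 were used with build mm10. Peak calling by the authors was done per replicate with the stringent mode of SEACR and no IgG control, with the top 1% of signal blocks retained. The treatment of duplicate reads is not given in the sources used here. The deposited signal columns hold, per peak, the signal summed over its bases, its highest signal and where that lies, unscaled to depth. A fixed share of blocks was kept, so the number of peaks is no measure of enrichment, and neither the depth reached nor counting intervals can be had from the lists.

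Genes and start sites came from GENCODE vM21, restricted to the autosomes and the X (21755 protein-coding genes), and sequences from GRCm38. Coordinates are 1-based. Percentiles, shares of list signal and covered lengths were computed in Python 3.11.15 with numpy 2.4.6, and figures with matplotlib 3.10.9. Peaks sharing at least 1 bp were merged into regions. Pairs were compared within replicates by a two-sided exact sign-flip permutation test (n = 3, smallest p = 0.25), with Benjamini-Hochberg adjustment over 15 comparisons. The overlap search was tested on simulated peaks, and the nearest start site and the permutation tests on known answers. The other steps were not tested in this way. Genes named were the 6 members, transcripts and coding genes at the pairs, the arch, forebrain and marker lists, and the 3 coding genes closest to each member in share of list signal over the 3 replicates. Single peaks named were those at start sites, between the genes, in all replicates, and distal peaks needed to account for every member. The members and lists were chosen with earlier results of these data known, so their counts are descriptions. Values of some list genes are not reported here by name, although the genes stay in the counts. Alternatives were stronger peaks only, wider flanks, shorter distances, peak centres, a stricter overlap, unpaired values and leaving out each replicate.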

Additional observations from a re-analysis of the deposited data

How the results depend on the processing

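For 13 results, 109 values were recomputed under alternatives, and 100 were counted as unchanged. For levels of a pair this meant a shift below the SD between replicates, and for counts a value within 1.5 times. For differences between pairs only the sign was compared, so their size could change. Unpaired values were counted as unchanged throughout, since leaving out the pairing alters only p. Flanks of 20 kb and peak centres gave values equal to the main ones for every pair, so these settings add little to the count. With the stronger 50% of each list, peaks of Dlx5-Dlx6 covered 9.68 kb in place of 16.5 kb, those of Dlx3-Dlx4 7.36 kb in place of 16.0 kb and those of Dlx1-Dlx2 6.20 kb in place of 9.72 kb. With that setting the DNA between Dlx3 and Dlx4 was covered by 4.53% in place of 20.9%, and Dlx1-Dlx2 was below Dlx3-Dlx4 by a difference of -1.15 kb and below Dlx5-Dlx6 by one of -3.47 kb. Among these values of the pairs, only the covered length of Dlx5-Dlx6 was counted as changed, because the SD between replicates was wide. The number of members with a peak in all replicates was 1 with that setting, 1 with the strongest 10000 peaks and 1 when at least 50% of a peak had to lie in the window, and it ranged from 2 to 6 when a replicate was left out. Dlx5-Dlx6 minus Dlx3-Dlx4, 0.58 kb, became -0.63 kb with the strongest 10000 peaks and -2.02 kb with peaks up to 50 kb away, and ranged from -1.45 to 4.02 kb when a replicate was left out. The cause was not tested. With no replicate block, that is without pairing values within a replicate, the differences in covered length of -6.24, -6.81 and 0.58 kb had exact permutation p of 0.5, 0.3 and 1, and no comparison passed 0.05 with or without the pairing. Marks at the Dlx genes below the top 1% limit could not be seen, and 3 replicates set the smallest p.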

Other observations

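A list of 10 targets and partners of Dlx proteins in forebrain neurons was read like the arch list. Of the 10 genes, 5, 6 and 3 had a peak within 5 kb in replicates 1, 2 and 3 (24.9, 22.6 and 19.6% of all protein-coding genes). Gad1, which makes the transmitter GABA, had 12.2, 13.5 and 9.998% of its body and flanks under a peak, and the LIM homeobox genes Lhx6 and Lhx8, which are also active in facial mesenchyme, had 84.5, 77.5 and 79.5% and 19.3, 25.1 and 36.5%. These 3 had peaks in all replicates. Sp9 and Gad2 had peaks in replicates 1 and 2 only, and Isl1 in replicate 2 only. Slc32a1 and Sp8 were among those with none. Of 14 genes in a list of forebrain neuron markers, which shares 7 genes with this one, 7, 7 and 4 had a peak, beside the same shares of all genes. Gad1, Lhx6, Lhx8 and Emx2 had one in all replicates, with Emx2 at 61.3, 47.4 and 69.2%, and Nkx2-1 and Tbr1 were among those with none.

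In the comparison of signal shares, which covered the 3374 coding genes with a peak in all replicates, the closest genes to Dlx5 were C1qtnf1, Zdhhc1 and Sphk2. For C1qtnf1 the largest absolute log2 ratio to Dlx5 over the 3 replicates was 0.05, with 0.0121, 0.0205 and 0.00840% of the signal, beside 0.0122, 0.0197 and 0.00815% for Dlx5. The closest to Dlx6 were Rapgef3, 1110017D15Rik and Trim47, at 0.44 to 0.46. A share counts the whole signal of each peak that touches the body or flanks. In replicate 2 the Dlx6 share of 0.0265% thus included the 10.8 kb peak over Dlx5, which held 0.0197%. In replicate 3 the Dlx6 share of 0.00264% was the intergenic peak alone. Dlx1, Dlx2, Dlx3 and Dlx4 had no value in replicate 3 and were not compared.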
